A study of Mus musculus with 3 samples.

Results

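The 270 antisense genes with a mean of at least 5 TPM were described in RNA bound to chromatin of mouse macrophages. TPM is a transcript's share of the sequenced RNA, corrected for length and scaled to a fixed sum per library. A gene was taken as antisense when every transcript listed for it has the type antisense in GENCODE M21, which 2948 genes met. Of these, 4 were left out by symbol (Tsix, Snhg7os, Snhg9 and Mir133a-1hg), and the 270 were chosen by their mean TPM in the gene tables from the 2944 that remained. Their levels therefore describe the selection, and no test was made of them.

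The libraries came from C57BL/6J bone-marrow-derived macrophages, primary cells grown from bone marrow, and held ribosome-depleted total RNA of the chromatin fraction. All 3 libraries form 1 group: cells exposed to Lipid A, the part of lipopolysaccharide that activates TLR4, at 100 ng per ml for 12 h, kept without it for 12 h and harvested at minute 0 of renewed exposure. The labels number them as biological replicates 1 to 3, give 1 donor identifier for all and leave unsaid if each had an animal of its own, so the spread between them may be technical. No untreated group was analysed here, so the values are levels at this point and not responses to Lipid A. Expected counts (estimated reads) summed to between 11958978 and 19475027 per library, from 1000, 250 and 500 ng of starting RNA in replicates 1, 2 and 3. The 10 macrophage markers summed to between 931.9 and 1147 TPM per library, with 9 of the 10 reaching 1 TPM in each library. Replicate 3 stood apart, since its 10 fibroblast and stromal markers summed to 628 TPM, against 2.02 and 2.92 TPM in replicates 1 and 2; in such bulk libraries, more cells of a type and more RNA per cell cannot be told apart. Among the 270 antisense genes, none lay opposite any of these stromal markers and none was 2-fold or more higher in replicate 3 than in both other libraries, and without replicate 3 the same rule gave 273 genes. Some partners were higher in replicate 3: Loxl2, opposite Gm27177, was at 0.44, 0.66 and 6.37 TPM and Palld, opposite 4930512H18Rik, at 0.31, 1.04 and 5.30 TPM in replicates 1, 2 and 3, so their means rest on that library. Gm27177 itself was at 12.0, 20.7 and 12.0 TPM and 4930512H18Rik at 14.5, 12.5 and 10.5 TPM, neither highest in replicate 3.

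An antisense gene is transcribed from the strand opposite to another gene, here called its sense partner, and may overlap that gene's exons, its introns or only its start or end. Some antisense RNAs act where they are made: Airn and Kcnq1ot1 silence neighbouring imprinted genes on the paternal chromosome. Chromatin-bound RNA is rich in unspliced pre-mRNA, so introns of transcribed genes are covered by reads there. The sources used here do not give whether reads were counted by strand, and the 6 signal tracks that the deposited notes name, 3 of all reads and 3 of unique reads, carry no strand in their names. How far sense pre-mRNA entered the counts of the antisense genes was not tested, and reads of the strands cannot be told apart without that setting. The values that bear on it stand beside the results.

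Sequences of 4 of the 12 highest genes are shown because they differ in what the annotation places on the other strand. AC119228.1, the highest, lies inside Cd274, the gene of the checkpoint ligand PD-L1, and 511 of its 4725 exonic bases are the reverse complement of Cd274 coding exons. The first line is the stretch of its shorter transcript around chr19:29373558-29373672 and the second the stretch of its longer transcript around chr19:29382476-29382586 (mm10, minus strand, GENCODE M21 transcripts), with the 115 and 111 bases opposite coding sequence in capitals.
AC119228.1 shorter transcript: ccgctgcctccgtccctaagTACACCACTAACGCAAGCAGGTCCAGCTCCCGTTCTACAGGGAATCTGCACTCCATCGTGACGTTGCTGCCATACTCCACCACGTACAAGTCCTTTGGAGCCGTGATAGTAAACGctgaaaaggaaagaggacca
AC119228.1 longer transcript: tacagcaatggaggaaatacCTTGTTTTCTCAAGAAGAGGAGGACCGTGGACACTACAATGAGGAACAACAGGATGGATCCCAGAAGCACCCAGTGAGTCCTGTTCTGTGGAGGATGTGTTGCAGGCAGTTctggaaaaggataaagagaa

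The other lines are promoter windows from 250 bases before to 50 bases after the RefSeq start (GRCm38.p6), each with a start within 3 bases of a GENCODE start. They belong to Tug1, to F630028O10Rik, which has no annotated gene on its other strand, and to Gm26740, which lies in introns of the almost silent Raet1e. The Tug1 window is built on a start at 3648814, which is 859 bases inside the annotated gene and 377 bases from the start of Morc2a in divergent orientation; the overlap with Morc2a belongs to the longest annotated extent of Tug1, which ends at 3649673. Capitals mark 4 motifs searched on both strands: the GC box GGGCGG, the box known by its letters CCAAT and bound by the factor NF-Y, the TATA box with the letters TATAAA, and the sequence GAGGAA, which holds a core bound by ETS factors.
Tug1, chr11:3648765-3649064, minus strand: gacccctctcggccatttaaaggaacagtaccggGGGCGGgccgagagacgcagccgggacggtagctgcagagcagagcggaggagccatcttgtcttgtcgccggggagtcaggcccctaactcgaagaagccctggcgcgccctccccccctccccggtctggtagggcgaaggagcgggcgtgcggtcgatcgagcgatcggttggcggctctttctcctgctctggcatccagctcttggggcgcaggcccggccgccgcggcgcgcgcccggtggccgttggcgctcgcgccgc
F630028O10Rik, chrX:96239676-96239975, plus strand: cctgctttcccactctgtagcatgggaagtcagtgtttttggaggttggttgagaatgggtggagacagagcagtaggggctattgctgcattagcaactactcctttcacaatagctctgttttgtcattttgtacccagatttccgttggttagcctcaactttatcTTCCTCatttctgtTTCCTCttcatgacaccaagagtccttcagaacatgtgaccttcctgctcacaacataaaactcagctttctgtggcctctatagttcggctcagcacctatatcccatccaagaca
Gm26740, chr10:22302789-22303088, minus strand: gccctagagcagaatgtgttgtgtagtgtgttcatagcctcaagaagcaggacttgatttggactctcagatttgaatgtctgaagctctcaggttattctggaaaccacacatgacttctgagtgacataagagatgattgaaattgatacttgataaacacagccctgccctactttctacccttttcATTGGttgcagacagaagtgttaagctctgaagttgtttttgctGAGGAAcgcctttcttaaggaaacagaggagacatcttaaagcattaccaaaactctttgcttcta

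The Tug1 window held 37 CpG dinucleotides, 71.3% G or C and 1 GC box. The windows of F630028O10Rik and Gm26740 held 2 and 1 CpG dinucleotides at 45.3% and 41.0% G or C. The ETS motif was found 2 times at F630028O10Rik and 1 time at Gm26740, which also had 1 NF-Y box, and none of the 3 windows held the TATA box. Of the 270 genes, 92 had a RefSeq promoter entry under their symbol and 58 had 1 whose start lay within 50 bases of a GENCODE start. Among these 58, 36.2% held the GC box, 37.9% the NF-Y box, 29.3% the ETS motif and 8.62% the TATA box, against 35.7%, 37.4%, 28.3% and 13.6% of all 32851 promoter windows of the same length. The median G or C share was 53.8% in the 58 windows and 52.7% in all windows. A match in these letters is a description and says nothing of binding.

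The genes at 5 TPM or more were 9.17% of the 2944, and they held between 69.9% and 72.2% of the summed TPM of antisense genes in each library. Most were low: 150 were under 10 TPM, 48 were at 20 TPM or more, 8 at 50 or more and 4 at 100 or more. Their median was 9.35 TPM, against 0.023 TPM for the other 2674 genes and 0.91 TPM for protein-coding genes. Of the 2944, 2125 (72.2%) were under 1 TPM and 1260 had 0 TPM in all 3 libraries. The share of genes at 5 TPM or more was 2.96% among 5854 lincRNA genes, 26.0% among 327 sense-intronic genes and 35.9% among 22028 protein-coding genes. In sum the 270 genes held 3955, 4265 and 3713 TPM in replicates 1, 2 and 3, a mean of 3978 ± 277 (SD, n = 3).

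AC119228.1 (chr19:29373417-29384471) was at 175.9, 177.4 and 135.2 TPM in replicates 1, 2 and 3, a mean of 163 ± 24.0 TPM. Cd274 itself stood at 219.3, 192.3 and 168.4 TPM, so each library had slightly more of the sense gene. Of the antisense TPM, 85.6% was assigned to the longer transcript of 4469 bases, whose exons lie mostly in Cd274 introns. Gm28913 (chr1:131263330-131266749), which lies inside Ikbke, the gene of the interferon-inducing kinase IKK-epsilon, was at 133.8, 163.1 and 129.2 TPM. Ikbke was far above it in every library, at 1107, 1257 and 1118 TPM. A second gene inside Ikbke, Gm28914, averaged 38.3 ± 10.4 TPM.

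Gm16094 (chr1:85599286-85599839) was at 123.7, 100.7 and 93.7 TPM and overlaps no protein-coding gene on the other strand. Its start lies 469 bases from that of Sp110, a nuclear-body gene induced by interferon, in divergent orientation. The Sp110 and Sp140 genes form a repeated family in this region, so the assignment of reads to Gm16094 and to Gm17017 (24.2 TPM) and Gm10552 (10.2 TPM), which lie opposite Sp140, is uncertain.

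Lrmda held 3 of the genes in its introns: Gm7480 at 138.6, 101.1 and 71.7 TPM, 4930405A10Rik at 50.4, 49.0 and 41.9 TPM, and Gm10248 at a mean of 6.76 TPM. Lrmda was at 110.0, 129.4 and 105.2 TPM, so Gm7480 was above it in replicate 1 and below it in replicates 2 and 3. 4933423P22Rik, in an intron of the receptor phosphatase gene Ptprj, was at 71.2, 81.9 and 64.0 TPM beside a partner mean of 66.9 ± 6.90 TPM. The others among the 12 highest that lie inside a transcribed gene were Gm46411 (62.4 ± 6.17 TPM) in Rreb1 (92.7 ± 18.4 TPM), a zinc-finger factor, Gm45479 (46.9 ± 5.25 TPM) in Irf2 (162 ± 14.5 TPM), a repressor of interferon genes, and Gm13556 (44.2 ± 9.84 TPM) in Dennd1a (285 ± 37.2 TPM), an activator of Rab GTPases.

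**Figure D1:**
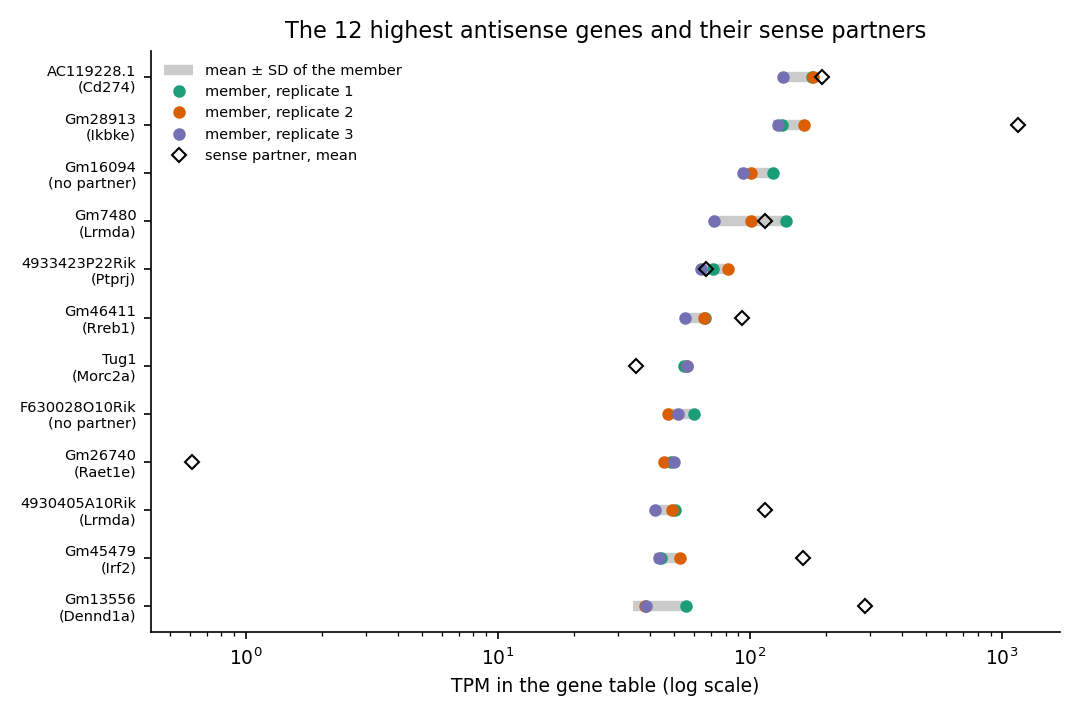
TPM of the 12 highest antisense genes (log scale) in replicates 1 to 3 (points), with the mean and SD (grey bar) and the mean TPM of the sense partner (open diamond, name in brackets). The library values of each gene lie within 2-fold of each other, while the partners reach from 0.61 TPM (Raet1e) to 1161 TPM (Ikbke).

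The genes were mostly placed inside a protein-coding gene of the other strand. Of the 270, 177 (65.6%) lay wholly within the body of the partner, taken as the opposite-strand protein-coding gene with the longest overlap, against 53.4% of the other 2674. Another 43 overlapped it tail to tail, 31 head to head, 5 contained it, and 14 overlapped no protein-coding gene on the other strand. Head-to-head pairs made up 11.5% of the 270 and 21.3% of the others. In all, 71.1% of the exonic bases of the 270 lay on introns of opposite-strand protein-coding genes, 11.1% on their exons and 17.8% outside them, against 49.7%, 15.7% and 34.7% for the others. Exons lay entirely in such introns for 96 genes (35.6%), against 27.3% of the others. No base lay on a sense exon for 119 of the 270 and for 1161 of the other 2674. Both sets were mostly spliced in the annotation, with more than 1 exon in 91.9% and 93.8%, and the median exonic length was 1336 and 887.5 bases. The 256 genes with a partner shared 237 partners: 16 partners had more than 1, and Arhgap10 had 4 (0610038B21Rik, Gm45285, Gm45406 and 4933421D24Rik, from 9.73 to 20.8 TPM).

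The partners were transcribed far above the partners of other antisense genes. Their median was 40.4 TPM, against 0.96 TPM for the partners of the 2462 others that have one. Of the 256, 190 (74.2%) lay opposite a gene at 20 TPM or more, against 17.1% of the 2462; of all protein-coding genes, 17.1% were at that level. Over the 2718 antisense genes with a partner, the Spearman correlation between both levels was 0.71; within the 256 it was 0.31. These correlations run across genes of the same 3 libraries and were not tested. The 256 were chosen by their own level, which narrows its range, so these correlations cannot be set against each other. The antisense gene was usually the lower of the pair, with a median log2 ratio of -1.97 (0.1 TPM added to each). Of the 256, 33 (12.9%) were at or above their partner. The 2462 others were usually the lower too, with a median of -1.90 and 459 (18.6%) at or above their partner. A pair without signal in either gene counts as at or above. The 256 can hold no such pair, so these shares cannot be compared. Where both levels are very low, the added 0.1 TPM largely sets the ratio. Over expressed partners only, the medians were -2.03 for the genes at 5 TPM or more and -3.89 for the others. The minimum of 5 TPM raises the first of these medians and lowers the second, so the rule itself makes them differ. These differences were not tested.

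**Figure D2:**
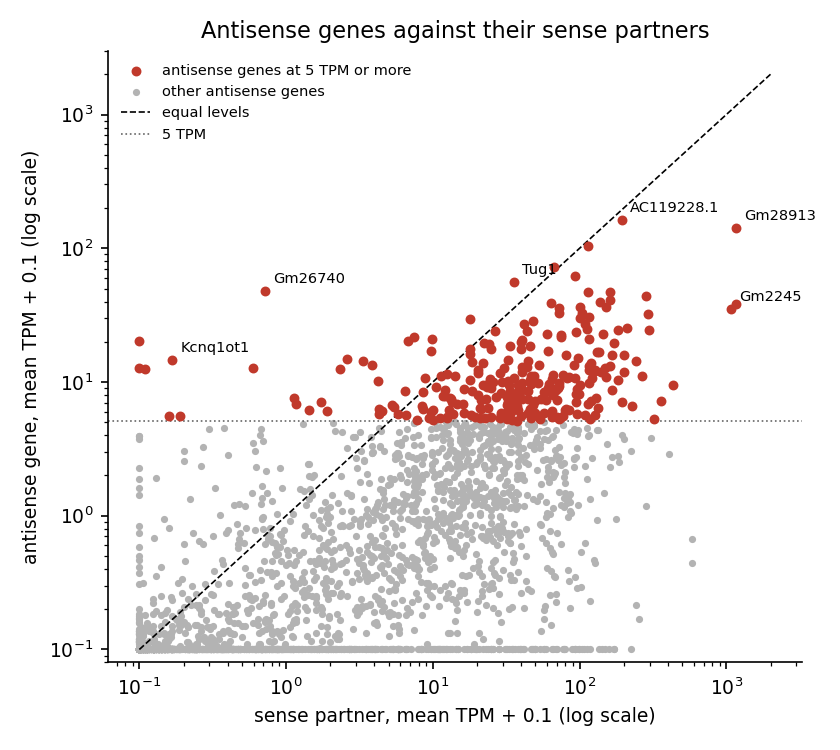
Mean TPM of each antisense gene against that of its sense partner, both with 0.1 added on log scales, for the 256 genes at 5 TPM or more with a partner (red) and the 2462 others (grey). The red points lie mostly at partner levels above 20 TPM and below the line of equal levels, and Gm26740 and Kcnq1ot1 lie far to the left.

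With the strand setting unknown, antisense genes whose exons lie entirely in opposite-strand introns were set beside sense-intronic genes, which lie in introns of a gene on their own strand. The levels of both kinds were lowest in the least transcribed hosts and highest in the most transcribed, but did not climb at every step between. In hosts under 1 TPM, 1 of 402 antisense genes and 0 of 96 sense-intronic genes were at 5 TPM or more. In hosts from 1 to 5 TPM, 5.38% of 130 antisense and 6.82% of 44 sense-intronic genes were. In hosts from 5 to 20 TPM the kinds stood further apart, at 12.6% of 119 antisense and 37.9% of 58 sense-intronic genes. Their medians there were 1.15 and 3.005 TPM. In hosts from 20 to 50 TPM the shares were 35.1% of 94 antisense and 57.6% of 59 sense-intronic genes, with medians of 4.02 and 5.96 TPM. In hosts from 50 to 100 TPM they were 38.2% of 55 and 34.1% of 44, with lower medians of 3.68 and 3.24 TPM. In hosts at 100 TPM or more they were 73.1% of 26 and 63.6% of 11, with medians of 12.1 and 20.4 TPM.

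Not every intronic gene in a transcribed host was high. In hosts at 20 TPM or more, 42 of 175 intronic antisense genes (24.0%) were under 1 TPM, and so were 20 of 114 sense-intronic genes (17.5%). The Spearman correlation between gene and host was 0.76 over 826 antisense genes and 0.67 over 312 sense-intronic genes, with both levels from the same libraries. Within the 95 of the 270 that are wholly intronic with a partner at 1 TPM or more, library-to-library log2 ratios of gene and partner had Spearman correlations of 0.37, 0.48 and 0.59 for replicates 1 over 2, 1 over 3 and 2 over 3. Over the 26 genes lying mostly outside their partner, they were 0.09, 0.10 and 0.15. All of these ratios share the 3 libraries and their scaling, and none was tested.

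**Figure D3:**
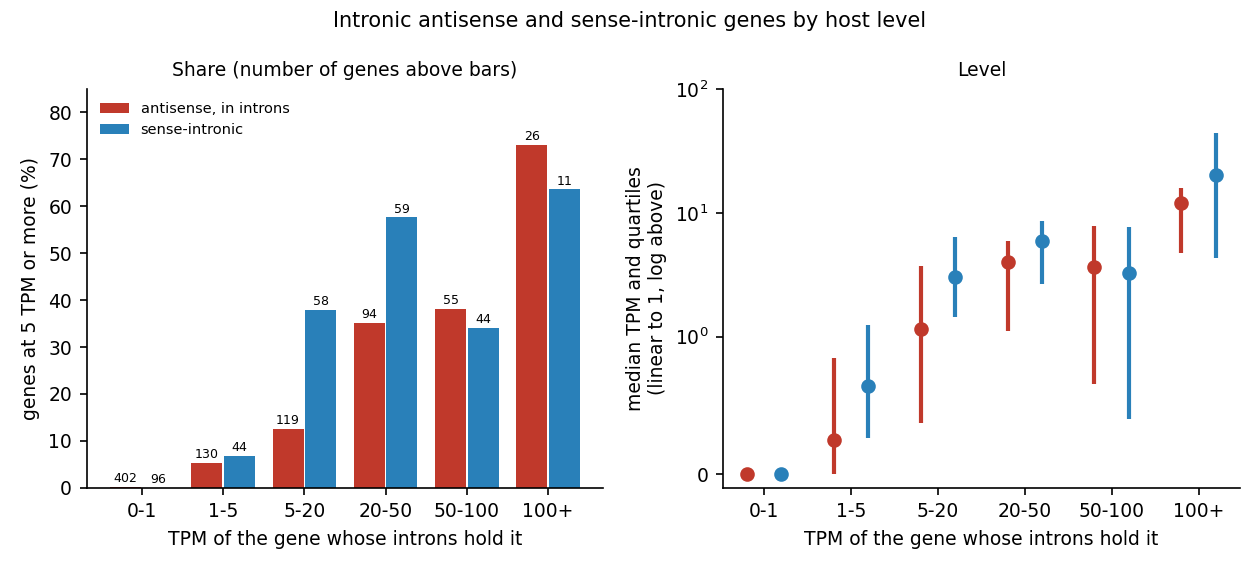
Antisense genes lying wholly in opposite-strand introns (red) and sense-intronic genes (blue), binned by TPM of the host gene: the share at 5 TPM or more with the number of genes above each bar (left), and the median TPM with quartiles (right, linear to 1 and log above). Both kinds are at or near 0 in hosts under 1 TPM and reach medians of 12.1 and 20.4 TPM in hosts at 100 TPM or more.

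By annotation, 41 genes had 50% or more of their exonic bases outside opposite-strand protein-coding genes. Many of these still overlap a transcribed gene in part: 27 have a partner, which was at 1 TPM or more for 26 and at 20 TPM or more for 15, such as Cers2 at 96.4 TPM opposite 6330562C20Rik and Slc43a2 at 160.6 TPM opposite Gm45606. Of the genes lying mostly within sense genes, 7 had a partner under 1 TPM, although the partner is the gene with the longest overlap and others may overlap too. Partner levels are means over all libraries, and those of Loxl2 and Palld pass 1 TPM only through replicate 3. Of all antisense genes lying mostly within sense genes with a partner under 1 TPM, 0.75% reached 5 TPM, against 19.1% of those over a partner at 1 TPM or more and 4.83% of those mostly outside.

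Gm26740 (chr10:22187013-22302835), in introns of Raet1e, the gene of a ligand for the natural killer receptor NKG2D, was at 48.5, 45.6 and 49.8 TPM. Raet1e was at 0.56, 0.23 and 1.05 TPM, far below the antisense gene in every library, and H60b, which spans 75.5% of the same exonic bases, averaged 1.76 TPM. Kcnq1ot1 (chr7:143203458-143296549), an imprinted RNA of 93092 exonic bases inside the potassium channel gene Kcnq1, was at 12.5, 14.3 and 16.5 TPM. Kcnq1 was at 0.00, 0.06 and 0.14 TPM. Read-based values of Kcnq1ot1 averaged the same 14.4 TPM as the gene table.

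Gm4673 (12.7 TPM), which overlaps Lsr (0.49 TPM) and no other protein-coding gene on that strand, starts 106 bases from Usf2. Tmem147os (5.47 ± 0.88 TPM) contains Gapdhs (0.06 TPM), a sperm glycolytic enzyme, and starts 39 bases from Tmem147. Another 4 genes with an almost silent partner also overlap a transcribed gene on the same strand as that partner. Etohd2 (12.6 ± 1.28 TPM) lies inside Gm49354, listed at 0 in every library, but Tut7 at 160 TPM spans 73.6% of its exonic bases. Gm26642 (20.2 ± 3.52 TPM) contains Elf3, an epithelial ETS factor listed at 0 in every library, while Rnpep at 182 TPM spans 92.0% of its exonic bases. For Gm26873 (5.49 TPM) the partner Lix1 was at 0.09 TPM and Riok2, which spans 84.5%, at 10.04 TPM. 9530082P21Rik (12.5 ± 1.08 TPM) overlaps the start of the Wnt-pathway receptor gene Kremen2 (0.01 TPM) over 5.12% of its exonic bases and Flywch1 at 9.38 TPM over 26.3%. It lies mostly outside sense genes, so it is not among the 7 mostly within sense genes with a partner under 1 TPM. Of the 33 genes at or above their partner, 21 had a partner under 5 TPM, and with the highest overlapping gene taken as partner, 29 were at or above it.

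Among the genes lying mostly outside sense genes, Tug1 (chr11:3639785-3649673) is a long nuclear RNA. In the gene table it had the closest values of the 12 highest, at 54.9, 56.4 and 56.4 TPM. Read-based values of Tug1 were 70.9, 43.3 and 50.4 TPM in replicates 1, 2 and 3, so this closeness did not hold there. A share of 4.96% of its exonic bases overlap exons of Morc2a (35.4 ± 5.64 TPM), a chromatin ATPase gene. Its transcripts shared the total, with the highest share, 26.1%, in a form of 6719 bases, and 2 of its 8 transcripts were listed at 0 in every library. F630028O10Rik (chrX:96239926-96243636) was at 59.9, 47.4 and 51.7 TPM with no annotated gene opposite. Gt(ROSA)26Sor, whose locus is widely used to insert transgenes, was at 20.0, 19.9 and 19.6 TPM and starts 32 bases from Setd5. Airn (chr17:12741311-12860136) was at 24.7, 34.0 and 30.4 TPM and Igf2r, the imprinted receptor gene whose start it overlaps, at 13.1, 17.8 and 22.6 TPM. Airn was above Igf2r in every library.

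The other genes of this placement that carry their own symbols were Zmiz1os1 at 27.1 ± 4.58 TPM, Rab10os at 13.7 ± 3.83 TPM, Brip1os at 11.6 ± 0.43 TPM, Ttc39aos1 at 6.37 ± 1.94 TPM and Tmem51os1 at 5.12 ± 0.69 TPM. Brip1os starts 177 bases from the DNA helicase gene Brip1 and Ttc39aos1 starts 468 bases from Ttc39a, each in divergent orientation. Of the 41, 8 also overlap a protein-coding gene on their own strand, such as Gm15445 (31.1 TPM) with Arl8a, Gm15859 (30.8 TPM) with Hmox2 and D730005E14Rik (13.8 TPM) with Apobec3, so their reads may be shared with that gene.

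Genes with their own symbols that lie over a transcribed partner were mostly below it. Adap2os averaged 19.5 ± 4.51 TPM beside Adap2 at 171 TPM, Tmcc3os 15.0 ± 3.37 TPM beside Tmcc3 at 98.0 TPM, Uckl1os 12.3 ± 1.97 TPM beside Uckl1 at 127 TPM, and Aknaos 8.87 ± 0.60 TPM beside Akna at 61.2 TPM. Atxn7l1os1 and Atxn7l1os2 averaged 7.23 and 5.38 TPM beside Atxn7l1 at 70.6 TPM. Ube4bos1 stood at 6.11 TPM beside Ube4b at 37.7 TPM, and Arhgap27os3 at 5.26 TPM beside Arhgap27 at 20.7 TPM. Mypopos stood above its partner, at 20.3 ± 5.87 TPM beside Mypop at 6.67 TPM. Rab26os (7.003 ± 3.21 TPM) and Trmt61b (5.95 ± 0.85 TPM) were also above theirs, Rab26 at 1.64 TPM and Spdya at 1.81 TPM. Ccdc142os (6.20 TPM) and Tnfsf13os (5.66 TPM) were close to their partners, Gm42688 at 8.43 TPM and Tnfsfm13 at 5.66 TPM.

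Partners included genes of innate signalling. Of 86 protein-coding genes on a list of innate genes, 62 were at 20 TPM or more, 7 had an antisense gene, and the 3 antisense genes at 5 TPM or more were AC119228.1 opposite Cd274 and Gm28913 and Gm28914 opposite Ikbke. That is 37.5% of the 8 antisense genes opposite listed genes, beside 9.17% of all antisense genes. All of the 8 but Il1bos lay opposite a partner at 20 TPM or more. Of all antisense genes opposite partners at that level, 190 reached 5 TPM and 422 did not. No difference between the 8 and these sets was tested. The other 5 had a median of 1.68 TPM, among them Gm13822 (4.25 TPM) opposite Oasl1 (132 TPM), Gm47009 (3.50 TPM) opposite Irak3 and Il1bos (0.083 TPM) opposite Il1b. 1700084C06Rik, tail to tail with Tyk2 at 107 TPM, had 0 TPM in all 3 libraries.

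Of the antisense genes opposite a list of 56 macrophage genes, 49 of them at 20 TPM or more, 5 reached 5 TPM and 4 did not. Of all antisense genes 9.17% reached it, and opposite partners at 20 TPM or more 190 did and 422 did not. The difference was not tested. Gm2245 averaged 35.1 ± 4.03 TPM inside Fyb (1075 ± 53.4 TPM), an adaptor of integrin signalling. Gm14011 averaged 13.7 ± 2.90 TPM inside Mertk (120 ± 15.5 TPM), a receptor for dying cells, and 4930403D09Rik 7.15 ± 2.00 TPM inside Dock2 (358 ± 40.8 TPM), a Rac activator. Gm20531 averaged 5.17 ± 0.90 TPM inside Ptpn6 (118.5 ± 7.92 TPM), the phosphatase SHP-1. Gm15655, opposite the transcription factor gene Maf, is taken up with the spread below.

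Of the antisense genes opposite a list of 67 nuclear regulators, 44 of them at 20 TPM or more, 5 reached 5 TPM and 13 did not. The same shares over all antisense genes apply here, and the difference was not tested. Those described here were Gm12000 (19.5 ± 3.01 TPM) in Ikzf1 (22.3 ± 2.58 TPM), a lymphoid zinc-finger factor, Dnmt3aos (11.8 ± 2.14 TPM) in the DNA methyltransferase gene Dnmt3a (199 ± 14.9 TPM), AC061963.1 (11.2 ± 1.70 TPM) at the start of Kmt2a (65.9 ± 9.66 TPM), and CR974462.3 (mean 6.97 TPM) on Brd2 exons (194 ± 9.50 TPM). Junos, opposite Jun, was under the level at 2.87 ± 0.30 TPM, and Kdm6bos at 1.10 ± 0.46 TPM.

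Of 33 known long non-coding RNAs that were listed, 32 have a gene in the annotation and 17 of these have the gene type antisense. Tug1, Airn and Kcnq1ot1 were among the 270, and 12 of the 17 were under 1 TPM, such as Nespas (0.93 ± 0.28 TPM) at the imprinted Gnas locus. Hotairm1 was at 0.84, 0.48 and 2.80 TPM in replicates 1, 2 and 3. Its mean of 1.37 ± 1.25 TPM thus passes 1 TPM only through replicate 3. Zeb2os has the gene type antisense and was at 72.8 ± 23.3 TPM, but its transcripts are of several types, so the rule did not take it. Among all 143 genes of that mixed kind, 27 were at 5 TPM or more. Just inside the minimum stood D830024N08Rik at 5 ± 1.63 TPM, Gm11712 at 5.09 ± 2.80 TPM and Tmem51os1, and just outside it Bcas3os1 at 4.997 ± 0.83 TPM, Gm29050 at 4.96 ± 0.86 TPM and 2900060B14Rik at 4.92 ± 1.94 TPM.

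The spread between libraries, which the rule did not use, was tested across all genes. Among 14839 genes tested, 0 (0% of those tested) were more variable than edgeR's fitted trend at an adjusted p of 0.05, and so were 0 of the 261 antisense genes tested; at an unadjusted p under 0.05 the counts were 747 genes (5.03%) and 9 antisense genes (3.45%). With a robust trend, 24 genes (0.162%) and 0 antisense genes were called, and without replicate 3, 73 of 14603 (0.5%) and 2 antisense genes, Gm15655 and Peak1os. Missing this threshold does not show that genes were equally variable. The trend and the scatter around it were fitted to these same genes, so the share over all genes is largely set by the fit. The remaining 9 of the 270 had too few counts to be tested. The highest library was on median 1.40 times the lowest, 33 genes differed more than 2-fold, and 204 reached 5 TPM in each library. Replicate 2 held the highest value for 51.5% of the 270 genes, replicate 1 for 28.9% and replicate 3 for 19.6%, against 46.1%, 15.9% and 37.96% of the 7908 protein-coding genes at 5 TPM or more. This was not tested. Which library is highest depends on the scaling of the deposited TPM. Rescaled to nuclear-encoded coding genes and lncRNAs, levels rise by factors of 2.60, 2.07 and 2.33 in replicates 1, 2 and 3.

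Gm15655 (chr8:115705078-115707233), whose 440 exonic bases all lie opposite Maf exons, was at 5.11, 60.4 and 32.1 TPM from 14, 152 and 108 expected counts, while Maf averaged 104 ± 8.43 TPM. Its adjusted p was 0.55 with edgeR. Peak1os, in Peak1, was at 29.1, 11.6 and 14.5 TPM and had the same adjusted p of 0.55. Replicate 1 was the low library for Gm15655 and the high one for Peak1os.

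CR974462.3 was at 12.2, 6.72 and 2.00 TPM from 29, 14 and 6 counts, and it also overlaps H2-DMa on its own strand. Gm17122 was at 8.96, 1.18 and 5.59 TPM from 18, 2 and 13 counts on exons of the actin-binding gene Coro1c, and Gm17133 at 12.6, 1.21 and 3.41 TPM from 14, 1 and 4 counts. Gm31172, in an intron of Irf2, was at 4.89, 23.9 and 10.8 TPM from 7, 27 and 17 counts. All of these are short and rest on few reads. The 33 genes that differed more than 2-fold had a median exonic length of 600 bases and a median lowest count of 18 reads, and 13 of the 270 had fewer than 10 counts in some library.

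**Figure D4:**
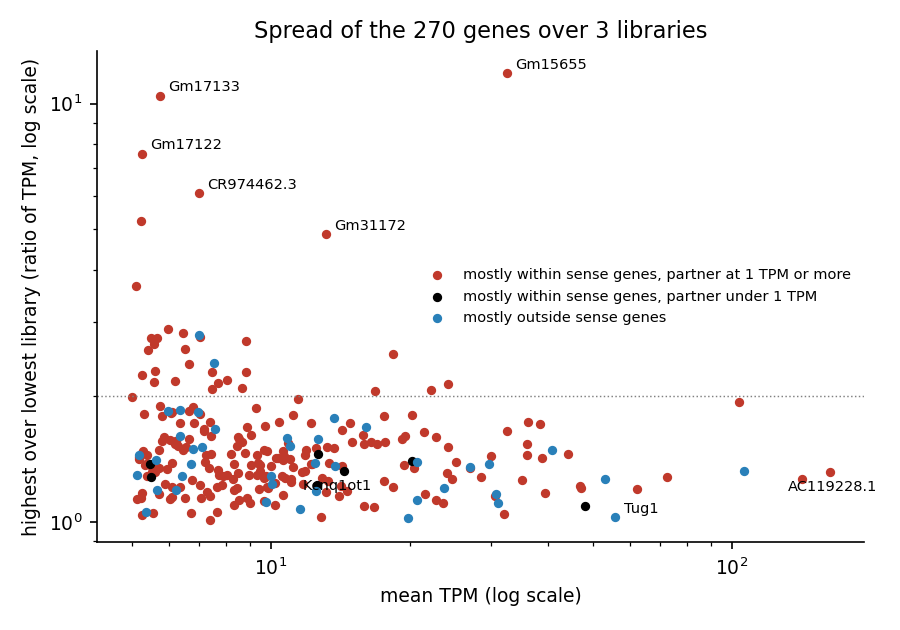
Ratio of the highest to the lowest library against the mean TPM (both log scales) for each of the 270 genes, coloured by placement relative to the longest-overlap partner. Points above the dotted line differ more than 2-fold; Gm15655 has the highest ratio, 11.8, AC119228.1 lies near the median of 1.40, and Tug1 near the bottom.

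The read-based tables, a second quantification of the same libraries, gave higher values for most of the genes. Of the 270, 257 were at 5 TPM or more there too and 198 were higher, with a median ratio of 1.35 over the gene table; the median ratio of protein-coding genes at 5 TPM or more was 1.29. The ratio followed length, with a median of 1.96 over 82 genes shorter than 800 exonic bases and 1.05 over 96 of at least 2000. Tug1 averaged 54.9 TPM and AC119228.1 152 TPM in the read-based tables, close to their means in the gene table. The libraries of Tug1 lay further apart there, from 43.3 to 70.9 TPM. Airn averaged 112 TPM there, Adap2os 83.2 TPM and Gm28913 404 TPM.

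The 4 genes that were lowest in the read-based tables for their gene-table level lie wholly or almost wholly on sense exons. Gm26716, opposite exons of the proteoglycan gene Sdc3, averaged 30.1 TPM in the gene table and 0.30 TPM in the read-based tables. Gm17139, opposite Arel1 exons, averaged 9.997 TPM in the gene table and was listed at 0 in the read-based tables. Gm17122 averaged 5.24 and 0.29 TPM, and Gm44709, opposite exons of the elongation factor gene Supt5, 6.20 and 1.57 TPM. In all, 20 of the 270 had 50% or more of their exonic bases on sense exons, and of the 96 antisense genes so placed over a partner at 20 TPM or more, 17 (17.7%) were at 5 TPM or more and 52 were under 1 TPM. How reads of such shared exons were divided between the strands was not tested.

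The 4 genes with the opposite difference lie in introns or mostly so. Gm13091, in Rere, averaged 5.73 TPM in the gene table and 76.5 TPM in the read-based tables, Gm44649, in Iqgap1, 6.56 and 75.3 TPM, Gm31172 13.2 and 132 TPM, and Gm20234, tail to tail with Slfn2, 16.5 and 151 TPM. Relative to their partners, the lowest of all in the gene table were Gm15701 (9.40 TPM) in Rasa4 (436 TPM), 4930579G18Rik (5.16 TPM) in Acin1 (319.5 TPM), and Gm44649, Gm2245 and 4930403D09Rik.

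**Figure D5:**
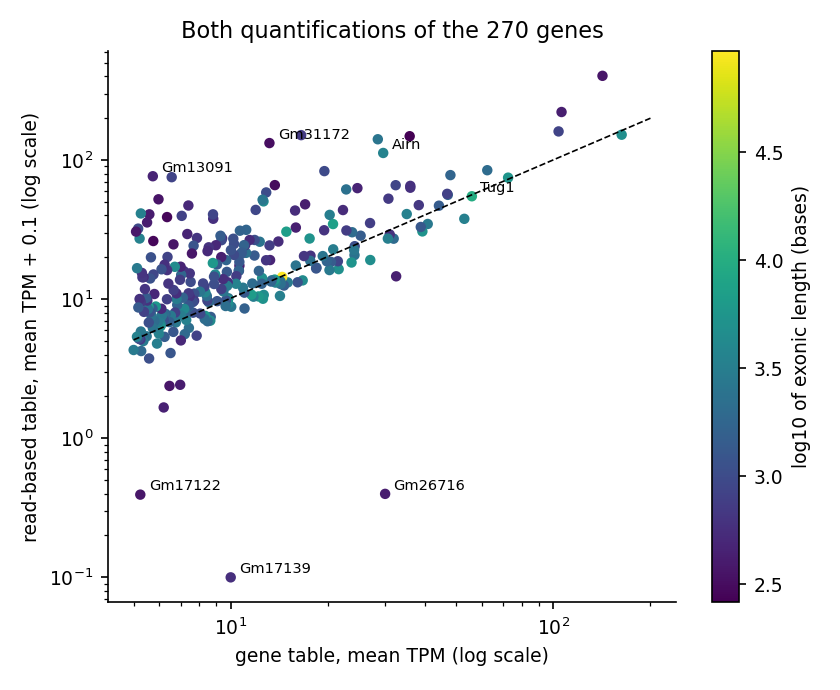
Mean TPM of each of the 270 genes in the read-based tables (0.1 added) against the gene table, on log scales, coloured by exonic length; the dashed line marks equal values. Most points lie above the line, short genes (dark) furthest, and Gm26716, Gm17139 and Gm17122 lie far below it.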

How the data were processed

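Gene tables hold expected counts and TPM that the authors deposited, 1 library each; per the README files in the deposit they came from a transcriptome alignment on mm10 with GENCODE M21, and the read-based transcript tables from the reads and an index. The sources used here give no aligner, versions or strand setting. The deposited TPM are scaled over every row of a table, tRNA and spike-in rows included. The interval bounds (a signal column) and the isoform percent were deposited by the authors too, and read-based estimated counts and TPM were summed here by gene. Rows naming no gene held 1.31%, 0.48% and 0.24% of expected counts in replicates 1, 2 and 3 and stayed out of tests.

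Members, partners and overlaps came from GENCODE M21 coordinates. Spread was fitted with edgeR 4.0.16 (R 4.3.3) on rounded expected counts with filterByExpr, TMM and an intercept, testing each quasi-dispersion against the trend with Benjamini-Hochberg adjustment over all genes, after a test on simulated data. DESeq2 1.42.0 gave alternative size factors. Other steps used Python 3.11.15, pandas 2.3.3 and scipy 1.17.1. No pair of libraries agreed within sampling noise (chi-square over its degrees of freedom between 39.3 and 69.0). The members and lists were chosen with earlier results of these data known. Named are the 12 highest and 3 lowest genes, the 3 next under the minimum, the extremes of spread, of both ratios, the genes with own symbols and those opposite listed genes; a few others serve as examples of counts and were chosen after their values were seen. Alternatives were the read-based tables, TPM rescaled to nuclear-encoded coding genes and lncRNAs, other minimums, other pseudocounts, partners and filters, and each replicate left out. A result that the naming rule picks is not reported here.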

Additional observations from a re-analysis of the deposited data

How the results depend on the processing

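The number of antisense genes at the minimum was 270, and 743 with the read-based tables, 567 with TPM rescaled to nuclear-encoded coding genes and lncRNAs, 520 at a minimum of 2.5 TPM and 120 at 10 TPM. Over the 270, the median level of 9.35 TPM became 15.0 TPM with the read-based tables and 21.8 TPM when rescaled, and the summed level of 3978 TPM became 6894 and 9263 TPM. Rescaling multiplies every TPM of a library by the same factor (2.60, 2.07 and 2.33 in replicates 1, 2 and 3). The median log2 ratio to the partner was -1.97, and -1.79 with the read-based tables, -1.90 with a pseudocount of 1 TPM and -2.05 with the highest overlapping gene as partner, so the sign held under each. Genes at or above their partner numbered 33, and 29 to 37 under its alternatives.

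Leaving out a replicate gave 262 to 282 genes, medians of 8.90 to 9.60 TPM, sums of 3834 to 4110 TPM and ratios of -2.00 to -1.95. Variable genes numbered 0 in edgeR's test, 49 with no filter on low counts, 10 with read-based counts, 24 with a robust trend (chosen after seeing the data) and 0 to 73 with a replicate left out; among the antisense genes these were 0, 0, 0, 0 and 0 to 2. The cause of these differences was not tested. Of 310 recomputed levels of named genes, 204 stayed within the SD between libraries and 106 did not. These counts do not measure stability. Leaving out a replicate cannot move a mean by as much as that SD. Rescaling multiplies every level of a library by 2.07 to 2.60. Only the read-based levels were free to stay or move. Fewer than 10 counts in some library lay behind 13 of the 270 genes, which have at most 600 exonic bases.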
